A study of Mus musculus with 5 samples.

Results

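In the embryonic mouse heart, 9 regulators of alternative splicing in muscle were followed: the muscleblind genes Mbnl1, Mbnl2 and Mbnl3, the CELF genes Celf1 and Celf2, the RBFOX gene Rbfox2, the quaking gene Qk, and the polypyrimidine tract binding genes Ptbp1 and Ptbp2. They were chosen by name, with earlier results of these data known. All probe sets whose platform annotation gives 1 of these symbols alone were taken, older synonyms included. That gave 23 of 20380 probe sets and 8 of 12393 genes. Mbnl2 matched none of the probe sets used and was not analysed here. The data came from 5 whole hearts of wild-type mouse embryos at E12.5, each hybridised to an Affymetrix mouse 430A array. Per the labels, the strain was 129P2/OlaHsd backcrossed to C57BL/6 for 2 generations, and no other condition was studied. RNA came from individual hearts and was amplified from a small input. The hearts carry the numbers 6 to 10 in the labels, which do not give sex or litter, so p-values measure only the spread between these samples, which may be technical.

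Alternative splicing lets 1 gene give several proteins, and RNA-binding regulators set the choice by binding near an exon. Where they bind decides whether the exon is kept or skipped. In striated muscle, CELF proteins favour embryonic exon choices and muscleblind proteins favour adult ones, as known for the exon of cardiac troponin T that differs between embryo and adult. RBFOX proteins bind UGCAUG in introns beside muscle exons. Quaking is a STAR-family protein whose isoforms differ in their last exons. PTB proteins bind pyrimidine-rich tracts and mostly repress exons, and Ptbp1 itself represses an exon that Ptbp2 needs. The arrays measure transcript signal at each probe set and not exon choice, so splicing itself was not measured.

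A level here is log2(intensity + 16), and values after a mean are the SD between the 5 hearts. Detection required a probe set to lie above background on every array. The background of an array was set at the 95th percentile of signals from 69 genes of unrelated tissues (lens, retina, testis, pancreas and others), and lay between 4.99 and 5.42 on the 5 arrays. Of the lens crystallin genes that open that list, Cryaa (4.44 ± 0.25) and Cryga (4.29 ± 0.10) exceeded it in no heart and Crygb (5.08 ± 0.22) in 1. Of the 69 genes, 12 exceeded it in some hearts and 57 in none, which follows largely from its definition on these same genes. Of the 23 probe sets of these regulators, 13 were detected, 3 exceeded background in some hearts and 7 in none. Over all probe sets 47.7% were detected. Counted by gene through the probe set of highest mean, 7 of 8 regulators were detected, against 53.2% of all genes. Mbnl3 was the exception. Probe sets respond with different strength, so a higher level at 1 probe set does not show a more abundant transcript, and the regulators were not ranked. In whole hearts, fewer cells of a type and less RNA per cell cannot be told apart.

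**Figure D1:**
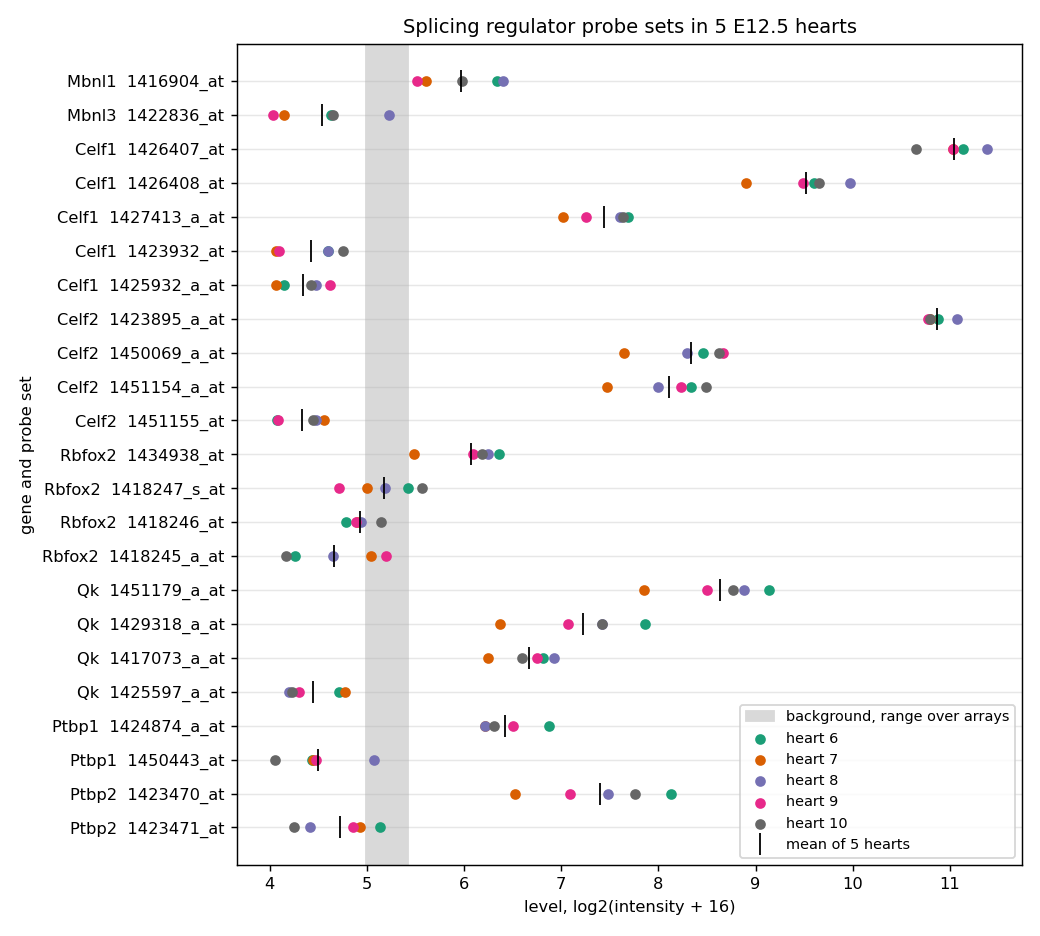
Level of each of the 23 probe sets in each heart, as log2(intensity + 16), with the mean of 5 hearts as a bar and the range of the background over the 5 arrays in grey. The 13 detected probe sets lie to the right of background in every heart, and each of the 6 genes with several probe sets also has at least 1 probe set that was not detected.

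The CELF genes gave strong signal through some probe sets and none above background through others. Celf1, which binds GU-rich RNA in the nucleus and the cytoplasm, was measured by 5 probe sets. Probe set 1426407_at had levels of 11.13, 11.04, 11.38, 11.03 and 10.65 in hearts 6, 7, 8, 9 and 10 (11.05 ± 0.26), with intensities of 1592 to 2649. Heart 10 was lowest and heart 8 highest there.

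The second Celf1 probe set, 1426408_at, had 9.60, 8.90, 9.98, 9.49 and 9.65 in hearts 6 to 10 (9.52 ± 0.39). Probe set 1427413_a_at had 7.69, 7.01, 7.61, 7.25 and 7.63 (7.44 ± 0.29). In both, heart 7 was lowest. The remaining probe sets 1423932_at (4.42 ± 0.32) and 1425932_a_at (4.34 ± 0.23) exceeded background in no heart.

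Celf2, the CELF paralogue with a large part in heart and brain, was measured by 4 probe sets. The brightest, 1423895_a_at, had 10.88, 10.80, 11.07, 10.78 and 10.80 in hearts 6 to 10 (10.86 ± 0.12). Over all 5 hearts this was the smallest SD among the detected probe sets of the regulators, but the rank rests on single hearts. Without heart 7 Rbfox2 1434938_at had a smaller one (0.11 against 0.13), and without heart 6 Ptbp1 1424874_a_at had (0.13 against 0.14). Without heart 8, the highest, the Celf2 SD was 0.04. Probe set 1450069_a_at had 8.46, 7.65, 8.29, 8.67 and 8.63 (8.34 ± 0.41), and 1451154_a_at had 8.34, 7.48, 8.00, 8.24 and 8.49 (8.11 ± 0.40). Both set heart 7 apart as lowest, which the brightest probe set did not. The fourth, 1451155_at, exceeded background in no heart (4.33 ± 0.23). The annotation derives 1423895_a_at, 1451154_a_at and 1451155_at from 1 source sequence, and their mean levels spanned 6.54 log2 units.

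The muscleblind genes, zinc finger proteins that are sequestered by expanded CUG repeats in myotonic dystrophy, gave weak signal or none by the probe sets used. Mbnl1 was measured by 1 probe set, 1416904_at, with 6.34, 5.61, 6.40, 5.51 and 5.98 in hearts 6 to 10 (5.97 ± 0.41). Hearts 7 and 9 were low, and heart 9 exceeded its background by 0.28 and heart 7 by 0.25. Mbnl3, an X-linked muscleblind paralogue, had 4.63, 4.14, 5.22, 4.03 and 4.65 at 1422836_at (4.54 ± 0.48) and exceeded background in no heart. Heart 8 came closest, 0.19 below it. With 1 probe set for each of these genes, signal below background does not show that a transcript was absent.

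Rbfox2, which acts in the developing heart, was detected by 1 of 4 probe sets. Probe set 1434938_at had 6.36, 5.48, 6.24, 6.09 and 6.18 in hearts 6 to 10 (6.07 ± 0.34), with heart 7 below the other hearts and 0.12 above its background. That was the smallest margin among the detected probe sets of the regulators. With background at the 99th percentile of the unrelated genes, this probe set exceeded it in 4 hearts, and 12 probe sets of 6 regulators remained detected. The other Rbfox2 probe sets, 1418247_s_at (5.18 ± 0.34), 1418246_at (4.93 ± 0.13) and 1418245_a_at (4.66 ± 0.46), share 1 source sequence and exceeded background in 2, 1 and 0 hearts.

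Qk, whose protein binds ACUAAN-type sites and acts in muscle and vessel cells, was detected by 3 of 4 probe sets. Probe set 1451179_a_at had 9.14, 7.86, 8.88, 8.50 and 8.76 in hearts 6 to 10 (8.63 ± 0.49). Probe set 1429318_a_at had 7.87, 6.37, 7.41, 7.07 and 7.41 (7.23 ± 0.56). Heart 6 was highest and heart 7 lowest in both.

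The third detected Qk probe set, 1417073_a_at, had 6.81, 6.25, 6.92, 6.75 and 6.59 (6.66 ± 0.26), again lowest in heart 7 but highest in heart 8. Probe set 1425597_a_at exceeded background in no heart (4.44 ± 0.27).

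The PTB genes were both detected, each by 1 of 2 probe sets. Ptbp1, the form found in most tissues, had 6.88, 6.22, 6.22, 6.50 and 6.30 at 1424874_a_at in hearts 6 to 10 (6.42 ± 0.28), with heart 6 highest and hearts 7 and 8 lowest. Its other probe set, 1450443_at, exceeded background in no heart (4.49 ± 0.37). Ptbp2, best known from neurons and testis, had 8.13, 6.53, 7.48, 7.09 and 7.76 at 1423470_at (7.40 ± 0.62).

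This Ptbp2 probe set had the largest SD among the detected ones of the regulators, with an intensity of 265.0 in heart 6 and 76.2 in heart 7. On the log2(intensity + 16) scale the range was 3.05-fold. The second Ptbp2 probe set, 1423471_at, comes from the same source sequence and exceeded background in heart 6 alone, by 0.05 (4.72 ± 0.37). Of 11 measured neuronal markers 2 were detected, Stmn2 (6.25 ± 0.28) and Gap43 (6.10 ± 0.45), and the summed intensity of the 11 genes was 206 to 242. The neuronal genes Elavl3, Elavl4 and Tubb3 were above background on 1, 0 and 4 arrays. In heart 7 Elavl3 was highest (5.38) and Elavl4 (5.20) lay above its mean (4.98), whereas Tubb3 was lowest (5.06). Stmn2 (5.94) and Gap43 (5.37) were both lowest in heart 7, as Ptbp2 was, with a median deviation of -0.52 there (-0.48 with quantile normalization). The part of neuronal cells in the Ptbp2 signal was not tested.

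Probe sets of the same regulator thus disagreed in whether they gave signal. All 6 regulators with several probe sets had at least 1 detected beside at least 1 that was not. Over all 4956 genes with several probe sets, 43.8% had such a mixture. Agreement across hearts was close for part of the detected probe sets only. For Qk, the difference between 1451179_a_at and 1429318_a_at had an SD of 0.09 over hearts, while each varied by 0.49 and 0.56.

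The Celf2 probe sets 1450069_a_at and 1451154_a_at differed with an SD of 0.13, and both differed from 1423895_a_at with SDs of 0.44 and 0.42. For Celf1, 1426408_at and 1427413_a_at differed with an SD of 0.21, and 1426407_at differed from them with SDs of 0.41 and 0.39. Each of these 2 genes thus had a pair that varied together, and its brightest probe set varied differently. Taking the 2 brightest detected probe sets of each of the 3 genes, 1 gene, Qk, had the same lowest heart in both, against 32.5% of 2115 genes measured this way. The median SD of the difference was 0.41 for the 3 genes and 0.29 for all 2115. With quantile normalization, or without heart 9, Celf2 also had the same lowest heart in both, which makes 2 of 3.

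**Figure D2:**
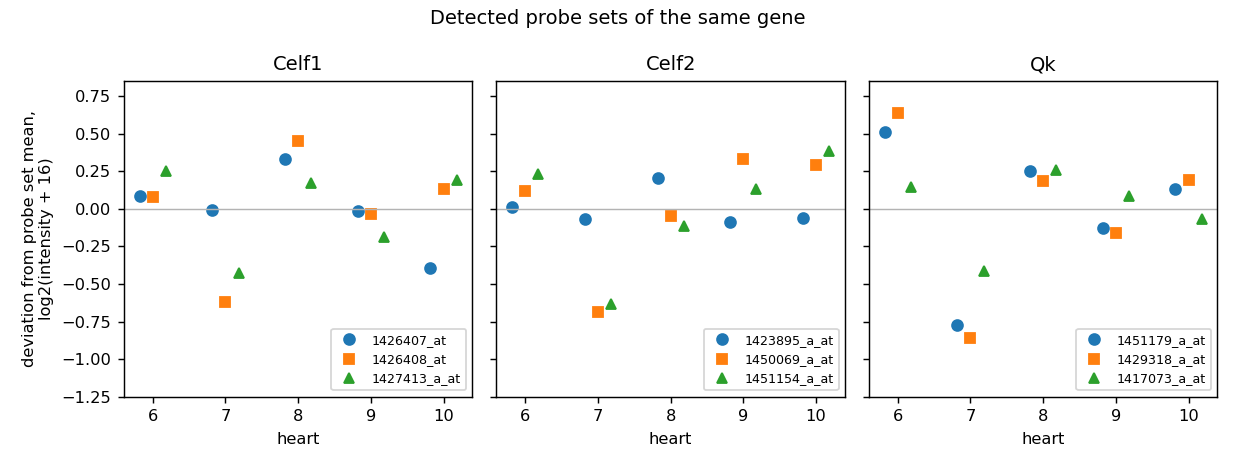
Deviation of each heart from the probe set's own mean, in log2(intensity + 16), for the detected probe sets of Celf1, Celf2 and Qk, with symbols offset sideways for clarity. The Qk probe sets 1451179_a_at and 1429318_a_at nearly coincide, whereas the brightest Celf1 and Celf2 probe sets (circles) do not show the low value of heart 7 seen in the others.

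Heart 7 gave low values for the regulators and heart 6 high ones. All 13 detected probe sets lay below their mean in heart 7, against 49.1% of all detected probe sets. All 13 lay above their mean in heart 6, against 51.6%. Heart 7 was the lowest of the 5 in 9 of the 13, against 29.3% of all detected probe sets. These 9 came from 5 genes (Celf1, Celf2, Rbfox2, Qk and Ptbp2), counting a gene with at least 1 such probe set. By the probe set of highest mean, heart 7 was lowest for 3 of the 7 genes, against 28.9% of all detected genes. The 13 probe sets belong to 7 genes and are not independent of each other.

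The median deviation of the 13 probe sets was -0.59 in heart 7, with a range of -0.87 (Ptbp2) to -0.01 (Celf1 1426407_at). In heart 6 it was 0.25, in heart 8 0.19, in heart 9 -0.03 and in heart 10 0.13. For all detected probe sets these medians lay between 0.00 and 0.01. All arrays share 1 trimmed mean, so medians near 0 over all probe sets follow largely from the scaling.

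**Figure D3:**
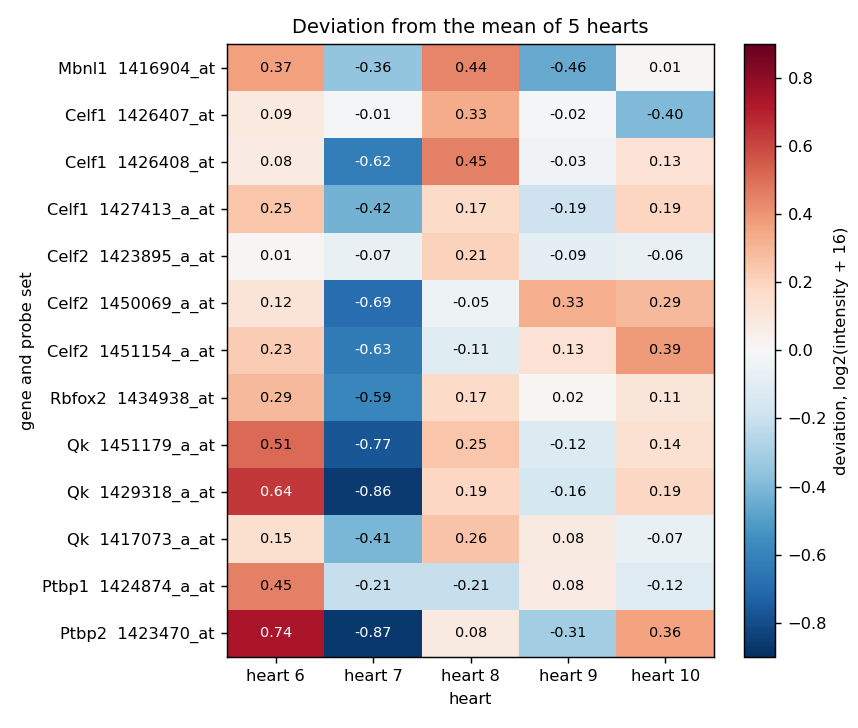
Deviation of each detected probe set from its mean over 5 hearts, in log2(intensity + 16), with blue below and red above the mean. The column of heart 7 is below 0 throughout, from -0.87 to -0.01, and that of heart 6 above 0 throughout, from 0.01 to 0.74.

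None of the regulators passed the test for variation between hearts. Each probe set's variance was compared with the variance limma's robust, level-dependent prior gives for probe sets of similar level. The adjusted p lay between 0.849 and 1 for the 23 probe sets by limma's variance test with Benjamini-Hochberg adjustment over 20380 probe sets. Among all probe sets tested, 9 passed (0.0442%), with 16 when heart 7 was left out and 4 when heart 8 was. At an unadjusted p under 0.05 there were 3 of 23, against 4.33% of all. These were Ptbp2 1423470_at (limma's variance test, unadjusted p = 0.0126, n = 5) and the Qk probe sets 1429318_a_at (0.0271) and 1451179_a_at (0.0338).

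The median SD of the 13 detected probe sets was 0.39, against 0.25 over all detected probe sets. Without heart 7 it was 0.21, equal to the 0.21 of all detected probe sets in the 4 remaining hearts. Heart 7 was picked for its low values in these same probe sets, so part of that fall follows from the choice.

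Control probe sets at the ends of the Gapdh transcript gave a 3' to 5' signal ratio of 5.69 in heart 7 and 2.50 to 3.55 in the others. The actin ratio was 4.27 in heart 7 and 3.20 to 4.48 in the others. Of 11 measured erythroid markers 7 were detected, among them Hba-x, Hbb-bh1 and Hbb-y, and none of the 7 had its lowest level in heart 7. The summed intensity of the 11 measured erythroid markers was 27299 in heart 7, 25610 in heart 8 and 17518 to 18052 in hearts 6, 9 and 10. The 14 measured leukocyte and macrophage markers summed to 1463 in heart 7 against 853 to 1397 elsewhere, with 7 detected. Ptprc, carried by nearly all leukocytes, lay above background on 1 array. The macrophage receptor gene Csf1r (8.35 ± 0.57) and the lysosomal gene Cd68 (5.39 ± 0.05) were detected and highest in heart 7, at 8.99 and 5.45. The complement gene C1qb (8.43 ± 0.51) was also highest in heart 7, at 9.00. The 7 detected markers had a median deviation of 0.27 in heart 7, and 1 of them, the macrophage receptor gene Mrc1, was lowest there (0 with quantile normalization). The part of RNA quality and of blood cells in the low values of heart 7 was not tested.

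The tissue label was met by the cardiomyocyte markers, all 13 of which were detected, including Tnnt2 (13.00 ± 0.15), Myh6 (11.97 ± 0.14) and Myh7 (12.69 ± 0.21). In heart 7, 2 of the 13 lay below their mean, with a median deviation of 0.13, and in heart 6 a single marker lay above it, with a median deviation of -0.19. Their summed intensity was 64822 in heart 7 and 52876 to 63560 in the others. With quantile normalization 4 lay below the mean in heart 7 and 6 above it in heart 6, with median deviations of 0.05 and -0.02. All 13 probe sets of the regulators kept their side of the mean in both hearts under that scaling. Of 14 measured skeletal muscle markers 6 were detected, and the myogenic factor genes Myod1, Myog and Myf5 were above background on no array. Of 12 measured endocardial and endothelial markers 10 were detected, and 5 of the 10 were lowest in heart 7 (4 with quantile normalization). The receptor genes Tek (9.84 in heart 7) and Kdr (6.01 in heart 9) were lowest in different hearts, and the adhesion gene Pecam1 exceeded background in 2 hearts. Of 15 measured markers of mesenchyme, epicardium and smooth muscle 13 were detected, and 6 of the 13 were lowest in heart 7 (8 with quantile normalization). The matrix genes Vcan (9.94) and Postn (8.59) were among these, whereas the transcription factor gene Sox9 was lowest in heart 6, at 6.24 against 6.27 in heart 7.

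Nearly all listed splicing regulators of muscle and heart outside the 9 genes gave signal. Of 24 measured, 23 were detected, and the heterogeneous nuclear ribonucleoprotein gene Hnrnpl exceeded background in 4 hearts. Heart 7 was lowest for 16 of the 23, against 28.9% of all detected genes, and 20 of the 23 lay below their mean there, with a median deviation of -0.31. With quantile normalization these counts were 17 and 20. Among the SR protein genes, which mostly promote exon inclusion, Srsf1 was lowest in heart 7, at 10.18, with 10.75 to 11.71 elsewhere. Srsf2 was at 7.31 in heart 7 against 8.00 to 8.32 elsewhere.

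Srsf3 (11.14 ± 0.11) and Srsf10 (7.54 ± 0.18) varied less and were also lowest in heart 7. Srsf5 (9.06 ± 0.33) was lowest in heart 8. Rbm38 (5.56 ± 0.38), an RNA-binding gene linked to the p53 response and to muscle and red cell differentiation, went the other way. It was highest in heart 7, at 6.04, but near background in heart 6, at 5.13 against 5.08. Raver1 (8.73 ± 0.23) was also highest in heart 7, at 8.97. None of the 24 passed limma's variance test, the lowest adjusted p being 0.380.

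**Figure D4:**
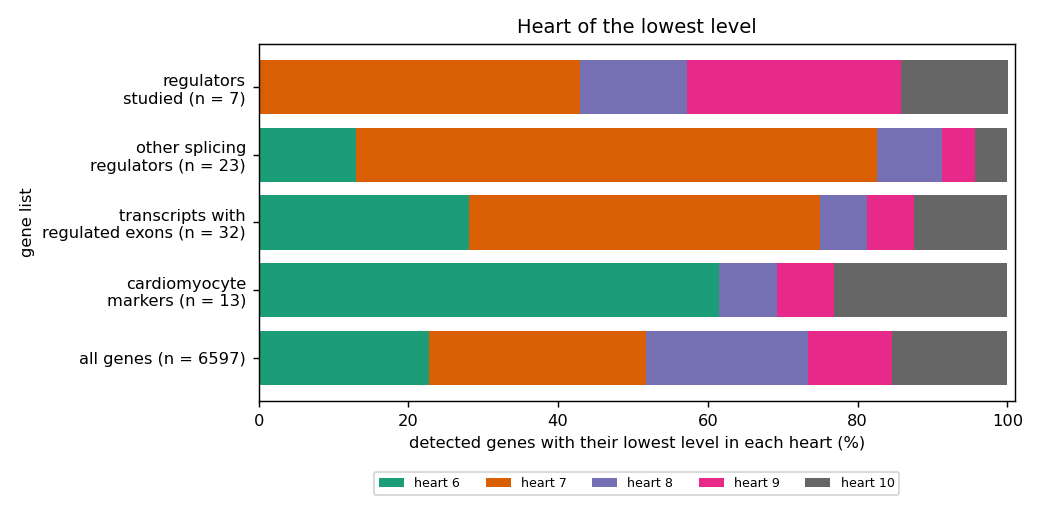
Share of detected genes with their lowest level in each heart, by gene list, 1 probe set a gene. Heart 7 holds the lowest level for 42.9% of the 7 detected regulators, 69.6% of the 23 other splicing regulators, 46.9% of the 32 transcripts with regulated exons, none of the cardiomyocyte markers (1 of 13 with quantile normalization) and 28.9% of all genes.

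Close paralogues of the regulators were measured for 4 of 7 listed genes. Ptbp3, the third PTB gene, was detected at 1455819_at with 9.38, 8.32, 8.56, 8.81 and 9.20 in hearts 6 to 10 (8.85 ± 0.44), highest in heart 6 and lowest in heart 7. Its probe sets 1424083_at and 1424084_at exceeded background in 2 and 0 hearts. Celf4, a CELF gene best known from neurons, was detected at 1426929_at (5.93 ± 0.11), lowest in heart 8, and at 1452240_at (5.82 ± 0.25). The latter was highest in heart 6, at 6.23, and lowest in heart 7, at 5.63. Celf4 1426930_at exceeded background in 3 hearts. Rbfox1, the RBFOX gene of brain, heart and skeletal muscle, was at 4.49 in heart 8 against 5.62 to 6.12 elsewhere (5.53 ± 0.61) and exceeded background in 4 hearts.

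Rbfox3, a marker of mature neurons, exceeded background in none (4.45 ± 0.31). Of 9 measured splicing regulators of neurons and epithelia, 2 were detected, the epithelial regulator Esrp2 (8.72 ± 0.19) and the STAR-family gene Khdrbs3 (6.01 ± 0.22). Nova1 (4.87 ± 0.34) and Srrm4 (4.54 ± 0.46), regulators of neuronal exons, exceeded background in no heart, and Elavl2 (5.68 ± 0.29), a neuronal RNA-binding gene, in 4. None of the genes in these lists passed limma's variance test.

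Transcripts whose exons the 9 genes are known to regulate were mostly present. Of 36 measured, which include Mbnl1 itself, 32 were detected (88.9%). Besides Tnnt2, they included the Z-disc gene Ldb3 (8.98 ± 0.49), the tropomyosin gene Tpm1 (13.01 ± 0.19), the calcium release channel gene Ryr2 (7.58 ± 0.53) and the transcription factor genes Mef2a (7.36 ± 0.25) and Mef2c (8.92 ± 0.40). Heart 7 was lowest for 15 of the 32, among them Ldb3, Ryr2, Mef2a and Mef2c, whereas Tnnt2 and Tpm1 were lowest in heart 6. None passed limma's variance test, the lowest adjusted p being 0.558. These levels do not tell which exons were used.

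Ptbp2 1423470_at had the largest SD, and the nearest to it among the regulators, in pattern and size of deviations together, were the brighter Qk probe sets. Distance was the root mean square difference of heart deviations over 5 hearts. It was 0.12 for Qk 1429318_a_at and 0.19 for Qk 1451179_a_at, and 0.30 or more for the other detected probe sets of the regulators. Deviations were not scaled, so this distance favours probe sets of large SD, and these 2 had the next largest (0.56 and 0.49). Celf1 1427413_a_at, with an SD of 0.29, ranked the 5 hearts in the same order as Ptbp2 but was at 0.31. The remaining detected Qk probe set, 1417073_a_at, was at 0.43, farther than Rbfox2 1434938_at (0.30). Outside the regulators, the nearest of 6590 detected genes were Morc3 (0.08), Slmap (0.11) and Ibtk (0.12). With 5 hearts and this many genes, close matches are found for many patterns.

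The 250 bases upstream of the annotated start sites of Ptbp2 and Qk are shown because 2 Qk probe sets were nearest to Ptbp2 by this distance. They were taken from RefSeq on GRCm38.p6, whose table held windows for 8 of the 9 genes. Capitals mark GGGCGG, the GC box, on either strand, with overlapping matches run together.
Ptbp2, chr3:119783389-119783638, minus strand: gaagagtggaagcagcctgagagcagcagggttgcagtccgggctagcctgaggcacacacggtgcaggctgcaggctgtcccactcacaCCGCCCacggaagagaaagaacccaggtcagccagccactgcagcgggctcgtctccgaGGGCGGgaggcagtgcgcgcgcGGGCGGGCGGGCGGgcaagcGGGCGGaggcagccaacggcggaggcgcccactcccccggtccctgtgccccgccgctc
Qk, chr17:10319362-10319611, minus strand: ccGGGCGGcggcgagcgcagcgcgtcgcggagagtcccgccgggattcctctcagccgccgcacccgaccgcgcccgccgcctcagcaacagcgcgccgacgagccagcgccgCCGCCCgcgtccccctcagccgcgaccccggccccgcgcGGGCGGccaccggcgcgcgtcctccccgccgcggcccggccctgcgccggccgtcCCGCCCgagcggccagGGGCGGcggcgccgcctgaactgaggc

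Both windows were rich in G and C, with 72.4% for Ptbp2 and 84.8% for Qk, against a median of 52.4% over 32851 windows of that length. The Ptbp2 window held 6 matches to GGGCGG and the Qk window 5, and neither held CCAAT or TATAAA or CACGTG on either strand. GGGCGG occurred in 32.7% of all windows, CCAAT in 33.8%, TATAAA in 12.4% and CACGTG in 6.02%. These shares count windows with at least 1 match and were not matched for G and C content, on which matches depend. Of the 13 windows of the 8 genes, 7 held GGGCGG, 3 CCAAT, 2 TATAAA and 2 CACGTG. The count for these genes left out any window on a single chromosome, which the count over all windows kept. These are matches of letters, and binding at them was not measured.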

How the data were processed

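Total RNA of 5 hearts was hybridised to 1 array each. The authors deposited 1 linear intensity per probe set and array, and the submitters' processing notes name GCOS. Its release and settings were not given in the sources used here, and amplification from little RNA can add noise to weak signals. Every array had a 2% trimmed mean of 150.1, a shared scale that hides any difference in total signal between hearts. Of 22690 probe sets, 20380 had 1 gene symbol and were no controls, and 20351 of these matched GRCm38.p6 by Entrez number.

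Values were scaled to a common trimmed mean and analysed as log2(intensity + 16), which compresses differences of weak probe sets. Lists other than the 9 genes used the probe set of highest mean. The variance test was an F test of each variance against limma's robust trended prior (R 4.3.3, limma 3.58.1), adjusted by Benjamini-Hochberg with a threshold of 0.05. With 1 group, no contrast was tested. The number of arrays limits precision.

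Named were all probe sets of the 9 genes, all measured paralogues, the 6 or 3 measured genes that stand first in each list, and the nearest 3 genes to the most variable detected probe set. Hnrnpl, Raver1, Esrp1, Esrp2, Khdrbs3, Gap43, Stmn2, C1qb and Mrc1 were named after their values were seen. Members and lists were chosen with earlier results of these data known. Alternatives were no rescaling, quantile normalization, offsets of 1 and 64, other backgrounds, 3 hearts sufficing, probe sets of type _s_at and _x_at left out, 1 probe set a gene, other priors, detected probe sets only and each heart left out.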

Additional observations from a re-analysis of the deposited data

Results flagged for a closer look

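Dixon's ratio, the gap of an extreme heart divided by the range, was computed for 65 probe sets and compared with its critical value of 0.71 for 5 hearts. None of the 23 probe sets of the regulators met it, although Rbfox2 1434938_at came close in heart 7 (ratio 0.690). Chance gives about 1 in 20, and 5 of 65 were found. Mef2c, a transcription factor gene with regulated exons, was at 8.24 in heart 7 and at 9.01 or more elsewhere. Myh7 was at 12.32 in heart 6 and at 12.73 or more elsewhere. Below or near background, Pecam1 had 4.15 in heart 7, Myog 4.06 in heart 9 and Myf5 4.43 in heart 8.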

How the results depend on the processing

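The number of probe sets of the regulators detected was 12 to 13 and the number of regulators detected 6 to 7 under the alternatives run. No probe set of theirs passed the variance test under any alternative, the lowest adjusted p of the detected ones being 0.620 (offset 1) among alternatives of scaling, offset, probe set type and left-out hearts. The count below the mean in heart 7 was 12 to 13 and that above the mean in heart 6 was 10 to 13, each of 13. The 10 came with heart 7 left out. The number of genes whose brightest pair shared the lowest heart was 2 with quantile normalization and 1 to 2 with a heart left out. Over all probe sets, the variance test called 9, but 5 without probe sets of type _s_at and _x_at, 17 at offset 1, 5 with 1 probe set a gene, 2 without robust estimation, 1 without trend, 2 among detected probe sets only and 4 to 16 with a heart left out (4 without heart 8, 16 without heart 7). The causes were not tested. Mean levels moved by more than the SD between hearts for 3 of 13 probe sets at offset 1 and 5 of 13 at offset 64, and for none under the other alternatives of scaling, probe set type and left-out hearts. No paired analysis was possible because there is 1 group. Signal near background limits what can be said of Mbnl1, Mbnl3 and Rbfox2.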
